A study of Homo sapiens with 8 samples.

Results

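Histone lysine methylation is written by methyltransferases and removed by demethylases, and the genes of both kinds of enzyme were followed in RD, an established human cell line from a rhabdomyosarcoma (a cancer with features of skeletal muscle), in which the homeobox transcription factor PROX1 had been silenced. Members were taken by name: protein-coding genes outside the Y chromosome whose symbol starts with KDM or KMT and a digit, together with EZH1, EZH2, NSD1, NSD2, NSD3, SETD1A, SETD1B, SETD2, SUV39H1, SUV39H2, EHMT1 and EHMT2. The rule found 39 genes, 20 methyltransferases and 19 demethylases, among 58302 genes in the count files and 19772 protein-coding genes outside the Y chromosome. A further 1 gene that matched the name rule lies on the Y chromosome and was left out. The shPROX1 group held 4 libraries of RD cells with a short hairpin RNA against PROX1, and the control group held 4 libraries of the same line with a scrambled hairpin. The series design calls them biological replicates and states PROX1 silencing as 75%. RD is a single tumour line, and whether a clone or a pool of hairpin-carrying cells was used is not stated in the labels. In a culture such as this, fewer cells of a kind and less RNA per cell cannot be told apart.

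As background, methylation of H3K4 is known for marking active promoters and enhancers, H3K36 methylation for marking transcribed gene bodies, and H3K9, H3K27 and H4K20 methylation for silenced or compacted chromatin. Methyltransferases mostly carry a SET domain and use S-adenosylmethionine, while demethylases are either flavin-dependent amine oxidases (KDM1A and KDM1B) or JmjC oxygenases that need iron, oxygen and 2-oxoglutarate. In the muscle lineage these enzymes are known to act with the myogenic factors, with EZH2 and EHMT2 holding muscle genes silent in undifferentiated myoblasts.

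The largest fall among the members was that of KDM5B and the largest rise that of KMT5A, and the promoters of these genes and of their closest paralogs are shown so that the sequence upstream of a member that moved can be set against that of relatives that moved less or the other way. Each is a RefSeq window of GRCh38.p14, read 5′ to 3′ on the gene's strand, of 300 bases that start 250 bases before the annotated transcript start and end 50 bases after it. Capitals mark a CCAAT box (CCAAT or its reverse complement ATTGG) or the E-box CAGCTG, a palindrome of the kind that myogenic bHLH factors are known to bind. Positions of a motif count from the transcript start, with upstream bases negative. Where a gene had several RefSeq starts (2 for KMT5A and 3 for KMT5B), the window nearest the annotated 5′ end of the gene was used. Its other starts were not examined.
KDM5B (chr1:202808372-202808671, minus strand): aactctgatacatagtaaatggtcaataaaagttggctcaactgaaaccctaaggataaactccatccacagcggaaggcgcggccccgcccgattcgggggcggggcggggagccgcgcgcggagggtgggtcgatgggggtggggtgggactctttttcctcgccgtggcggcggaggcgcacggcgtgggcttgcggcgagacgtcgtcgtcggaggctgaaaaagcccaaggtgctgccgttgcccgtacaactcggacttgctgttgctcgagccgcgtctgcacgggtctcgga
KDM5A (chr12:389271-389570, minus strand): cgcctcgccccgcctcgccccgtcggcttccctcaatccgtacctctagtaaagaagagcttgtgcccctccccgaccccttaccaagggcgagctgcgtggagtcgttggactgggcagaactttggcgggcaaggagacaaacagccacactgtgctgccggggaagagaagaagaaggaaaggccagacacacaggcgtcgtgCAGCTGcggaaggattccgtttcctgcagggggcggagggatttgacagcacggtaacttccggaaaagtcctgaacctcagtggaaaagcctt
KDM5C (chrX:53225158-53225457, minus strand): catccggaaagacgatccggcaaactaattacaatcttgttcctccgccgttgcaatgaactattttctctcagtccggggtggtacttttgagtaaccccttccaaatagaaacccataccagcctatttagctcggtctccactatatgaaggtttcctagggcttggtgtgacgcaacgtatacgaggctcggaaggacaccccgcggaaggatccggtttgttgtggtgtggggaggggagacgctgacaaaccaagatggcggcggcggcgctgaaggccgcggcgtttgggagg
KMT5A (chr12:123383882-123384181, plus strand): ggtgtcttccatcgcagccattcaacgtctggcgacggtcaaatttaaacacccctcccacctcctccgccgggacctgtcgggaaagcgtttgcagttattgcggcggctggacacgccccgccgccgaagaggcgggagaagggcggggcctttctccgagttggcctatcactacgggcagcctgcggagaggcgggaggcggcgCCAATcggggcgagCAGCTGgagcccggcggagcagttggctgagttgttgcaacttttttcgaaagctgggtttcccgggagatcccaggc
KMT5B (chr11:68213599-68213898, minus strand): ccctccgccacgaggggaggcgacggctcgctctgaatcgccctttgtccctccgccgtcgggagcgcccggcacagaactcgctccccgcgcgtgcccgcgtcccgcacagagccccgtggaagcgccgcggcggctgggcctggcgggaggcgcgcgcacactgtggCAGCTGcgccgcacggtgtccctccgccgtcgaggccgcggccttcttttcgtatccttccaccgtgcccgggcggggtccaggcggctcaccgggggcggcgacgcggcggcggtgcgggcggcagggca
KMT5C (chr19:55339626-55339925, plus strand): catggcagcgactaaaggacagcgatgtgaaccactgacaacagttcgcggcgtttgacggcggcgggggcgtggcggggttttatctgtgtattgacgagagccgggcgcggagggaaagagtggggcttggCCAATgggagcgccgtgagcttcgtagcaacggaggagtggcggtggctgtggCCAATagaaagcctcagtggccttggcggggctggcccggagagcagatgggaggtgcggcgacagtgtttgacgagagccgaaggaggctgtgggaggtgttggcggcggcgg

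The KDM5B window held neither motif, nor did that of KDM5C, while the KDM5A window had CAGCTG at -44. In the KMT5A window a CCAAT box at -42 stood beside CAGCTG at -28. The KMT5C window had CCAAT boxes at -117 and -64, and the KMT5B window had CAGCTG at -81. Windows were found for 36 of the 39 members, with none for KDM4E, NSD3 and SETD1B. Each member gave 1 window, whereas the set of all RefSeq windows includes every listed start of a gene. CCAAT on either strand was present in 11 of the 36 windows (30.6%), against 34.6% of all 35116 RefSeq windows, and CAGCTG in 9 (25.0%), against 17.9%. A further search, for the E2F-type letters TTTCCCGC, TTTGGCGC or TTTCGCGC on either strand, matched 3 of 36 (8.33%; EZH2, NSD2 and KDM1B), against 2.74% of all windows. Member windows had a median GC content of 66.7%, against 58.7% over all windows. By outcome, CCAAT was found in 2 of the 4 windows of members that were higher in shPROX1, 3 of 7 of those that were lower and 6 of 24 of those that did not pass, and CAGCTG in 1 of 4, 0 of 7 and 7 of 24. These matches are descriptions of letters and were set to no test.

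Counts assigned to genes ranged from 3747090 to 4301987 in the shPROX1 libraries and from 4055205 to 4865161 in control. Levels are given as CPM (counts scaled to library size), with TMM factors over the tested genes. Each log2 change is shPROX1 minus control with the standard error of the edgeR fit, and a gene is said to have risen or fallen where edgeR's quasi-likelihood test with Benjamini-Hochberg adjustment over 12392 tested genes passed 0.05. PROX1 itself (ENSG00000117707, chr1:213983181-214041502, plus strand) had 33, 42, 34 and 35 counts in the shPROX1 libraries, against 85, 66, 69 and 105 in control. It averaged 8.91 ± 1.16 CPM in shPROX1 and 18.6 ± 2.50 CPM in control (SD, n = 4 each; log2 change -1.07 ± 0.15, edgeR adjusted p = 4.89e-06), so that 47.6% of the control level remained, and the groups did not overlap. The 95% interval ran from 0.386 to 0.589 of control, a smaller fall than the 75% silencing that the series design states. The reason for this difference was not tested. All 8 skeletal muscle markers checked were expressed. Of these, 2 did not pass and 6 fell, MYOG most (48.4 ± 2.55 CPM in shPROX1 and 121 ± 5.63 CPM in control). The summed level of the 8 ranged from 1469 to 1558 CPM in shPROX1 and from 1855 to 1877 CPM in control. Of the epithelial and fibroblast markers, KRT18 (258 ± 12.1 CPM in shPROX1 and 186 ± 15.5 CPM in control) and THY1 (100.3 ± 2.25 CPM and 72.9 ± 6.90 CPM) rose, while EPCAM, CDH1, KRT19, PDGFRA, DCN and LUM averaged under 1 CPM in both groups. CDH5 and CD3E were at 0 in all 8 libraries, and PTPRC and KDR averaged at most 0.102 CPM. Summed levels were 258 to 285 CPM in shPROX1 and 174 to 207 CPM in control for 5 epithelial markers, 98.6 to 105 CPM and 69.1 to 83.9 CPM for 4 fibroblast markers, and 41.5 to 45.7 CPM and 37.8 to 52.5 CPM for 4 endothelial markers (nearly all TEK). The part of these shifts in the changes below was not tested.

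The tested histone methylation enzymes changed about as much as tested genes at large, with a median absolute log2 change of 0.18 in both. The fall of KDM5B and the rise of KMT5A stood at the ends of the members' range. Of the 39 members, 37 passed the filter on low counts, and KDM4E and KDM4F had no count in any library, so that levels of up to 0.801 CPM (3 counts in the shallowest library, counting error only) cannot be told from 0. Among the 37, 5 rose (KMT5A, SETD1B, KMT2C, NSD2 and KDM2A) and 7 fell (KDM5B, KDM7A, KMT5C, KDM3A, KDM1A, EHMT2 and KDM3B). Over all tested genes 35.2% were called, 17.3% higher and 17.9% lower, and the members' 12 of 37 (32.4%) lies near that background. The groups did not overlap in 9 members, 4 higher and 5 lower, against 32.4% of all tested genes (16.2% higher and 16.1% lower). The members' median log2 change was -0.04, against -0.01 over all tested genes. Of the 12 calls, 10 (83.3%) were smaller than 1.5-fold, as were 73.0% of all called genes, and 0 reached 2-fold. The KDM5B fall ranked 345 among the falls of all tested genes, and the KMT5A rise ranked 510 among the rises.

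Split by activity, the 20 methyltransferases had 4 rises and 2 falls (30.0% called), a median log2 change of 0.10 and 13 positive values. The 17 tested demethylases had 1 rise (KDM2A) and 5 falls (35.3% called), a median of -0.19 and 4 positive values. Both shares lie near the 35.2% called over all tested genes (17.3% higher and 17.9% lower), and each direction rests on few genes. Summed over members and divided by transcript length (CPM per kb of the longest annotated mRNA), demethylase transcripts amounted to 217 ± 3.87 in shPROX1 and 248 ± 3.13 in control, and methyltransferase transcripts to 234 ± 7.0 in shPROX1 and 215 ± 5.14 in control (SD, n = 4 each). KDM1A alone made up 76.7 of the demethylase sum in shPROX1 and 92.5 in control. KMT5A alone made up 49.4 of the methyltransferase sum in shPROX1 and 32.3 in control, which is most of that sum's difference between groups. Both sums thus rest on few genes. These counts depend on single libraries: without control replicate 2 there were 2 rises in all, and without shPROX1 replicate 1 or replicate 3 there were 3. Without shPROX1 replicate 2 there were 4 falls.

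**Figure D1:**
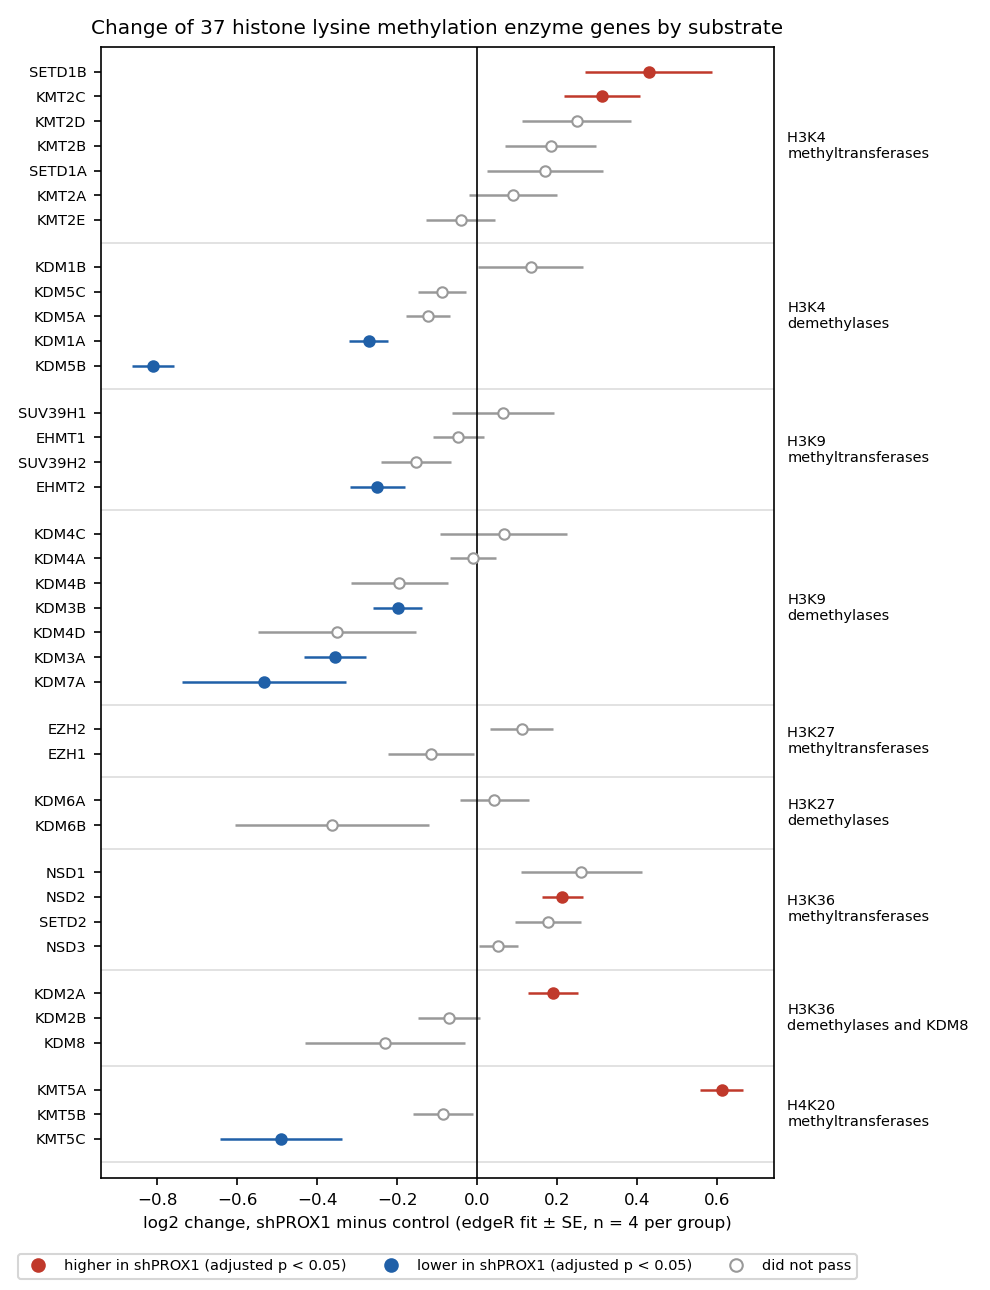
Log2 change (shPROX1 minus control, x axis) of the 37 tested members, grouped by the best-known substrate of each enzyme. Points are edgeR estimates with bars of 1 SE (n = 4 per group), red for the 5 members that rose, blue for the 7 that fell and open grey for the rest. KDM5B lies farthest left at -0.81 and KMT5A farthest right at 0.61.

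Among the 5 H3K4 demethylases, KDM5B and KDM1A fell (40.0% called, against 35.2% of all tested genes). KDM5B, also called JARID1B, a JmjC enzyme that removes methyl groups from trimethylated H3K4 and is known from slow-cycling tumour cells, showed the largest change of any member (ENSG00000117139, chr1:202724495-202809470, minus strand). Its level was 98.6, 108, 112 and 106 CPM in the shPROX1 libraries, against 188, 188, 189 and 181 CPM in control. Every shPROX1 library lay well below every control library. The means were 106 ± 5.76 CPM in shPROX1 and 186 ± 3.95 CPM in control (SD, n = 4 each), a 1.75-fold lower level (95% interval 1.62 to 1.89; log2 change -0.81 ± 0.05, edgeR adjusted p = 3.61e-11), and the fall was called in all 18 alternative settings.

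KDM1A (LSD1), the flavin-dependent demethylase of mono- and dimethylated H3K4 and a subunit of the CoREST repressor complex, was the most abundant member per transcript length in both groups. It had 245, 236, 235 and 222 CPM in shPROX1, against 295, 280, 281 and 277 CPM in control (ENSG00000004487, chr1:23019443-23083689, plus strand). Without overlap between groups, the fall was small, to 235 ± 9.78 CPM in shPROX1, against 283 ± 7.95 CPM in control (log2 change -0.27 ± 0.05, edgeR adjusted p = 1.36e-04). It too was called in all 18 settings. KDM1B, its paralog, averaged 16.2 ± 1.74 CPM in shPROX1 and 14.9 ± 1.6 CPM in control and did not pass (log2 change 0.13 ± 0.13).

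The paralogs of KDM5B moved less. KDM5A had 131, 130, 137 and 129 CPM in shPROX1, against 133, 144, 144 and 153 CPM in control (log2 change -0.12 ± 0.05, edgeR adjusted p = 0.0834), with the lowest control library inside the shPROX1 range. Without control replicate 1 its fall was called (edgeR adjusted p = 0.0238). KDM5C, an X-linked member of the family, averaged 129 ± 10.4 CPM in shPROX1 and 137 ± 5.33 CPM in control (log2 change -0.09 ± 0.06). Per transcript length the order within the family differed between groups. The KDM5B to KDM5A ratio was 0.781 to 0.866 in the shPROX1 libraries and 1.23 to 1.47 in control, so that KDM5A exceeded KDM5B in every shPROX1 library and KDM5B exceeded KDM5A in every control library, while KDM5C stood above both in either group (21.1 CPM per kb in shPROX1 and 22.5 in control).

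The H3K4 methyltransferases included 2 rises and 0 falls among 7 genes, with 6 positive log2 changes and a median of 0.18. Their share called was 28.6%, against 35.2% of all tested genes (17.3% higher and 17.9% lower). The group holds the KMT2 (MLL) enzymes and SETD1A and SETD1B, which work as catalytic subunits of COMPASS-type complexes. KMT2C (MLL3), known for placing monomethyl H3K4 at enhancers, had 65.0, 60.6, 83.6 and 62.8 CPM in shPROX1, against 48.2, 48.9, 60.7 and 59.9 CPM in control (log2 change 0.31 ± 0.10, edgeR adjusted p = 0.0136). The lowest shPROX1 library fell just below the highest control library, and replicate 3 stood above the rest of the shPROX1 group. The call was lost without shPROX1 replicate 3 (edgeR adjusted p = 0.0685) and without control replicate 2 (0.0520).

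SETD1B, the catalytic subunit of a complex that places trimethyl H3K4 at promoters, was a low-count gene with 44, 42, 46 and 39 counts in the shPROX1 libraries, against 35, 29, 32 and 40 in control. After scaling it had 10.4, 10.4, 12.4 and 9.21 CPM in shPROX1, against 8.27, 7.16, 7.71 and 8.12 CPM in control (log2 change 0.43 ± 0.16, edgeR adjusted p = 0.0402). CPM values were separate between the groups, yet the call was lost without any 1 of control replicates 2, 3 or 4 or shPROX1 replicates 1, 2 or 3 (edgeR adjusted p = 0.0617 to 0.118) and in DESeq2 (0.131).

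The other 5 H3K4 methyltransferases did not pass. The most abundant of them by CPM, KMT2A (MLL1, the gene rearranged in some leukaemias), had 71.4, 60.6, 96.2 and 68.2 CPM in shPROX1, against 54.8, 72.1, 72.8 and 77.1 CPM in control (log2 change 0.09 ± 0.11, 95% interval -0.14 to 0.32). Its groups overlapped widely, and its sign turned without control replicate 1 (-0.01) or shPROX1 replicate 3 (-0.05). It shares 18.9% of its exon bases with other annotated genes, most of all AP001267.5 on the same strand. The log2 changes of KMT2D (0.25 ± 0.14), KMT2B (0.18 ± 0.11), SETD1A (0.17 ± 0.15) and KMT2E (-0.04 ± 0.09; a family member with little known catalytic activity) were all within 2 SE of 0. Replicate 3 was also the highest shPROX1 library for KMT2D (50.8 CPM, against 28.6 to 35.5 CPM in the other 3), as it was for KMT2A and KMT2C, the members with the longest mRNAs.

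**Figure D2:**
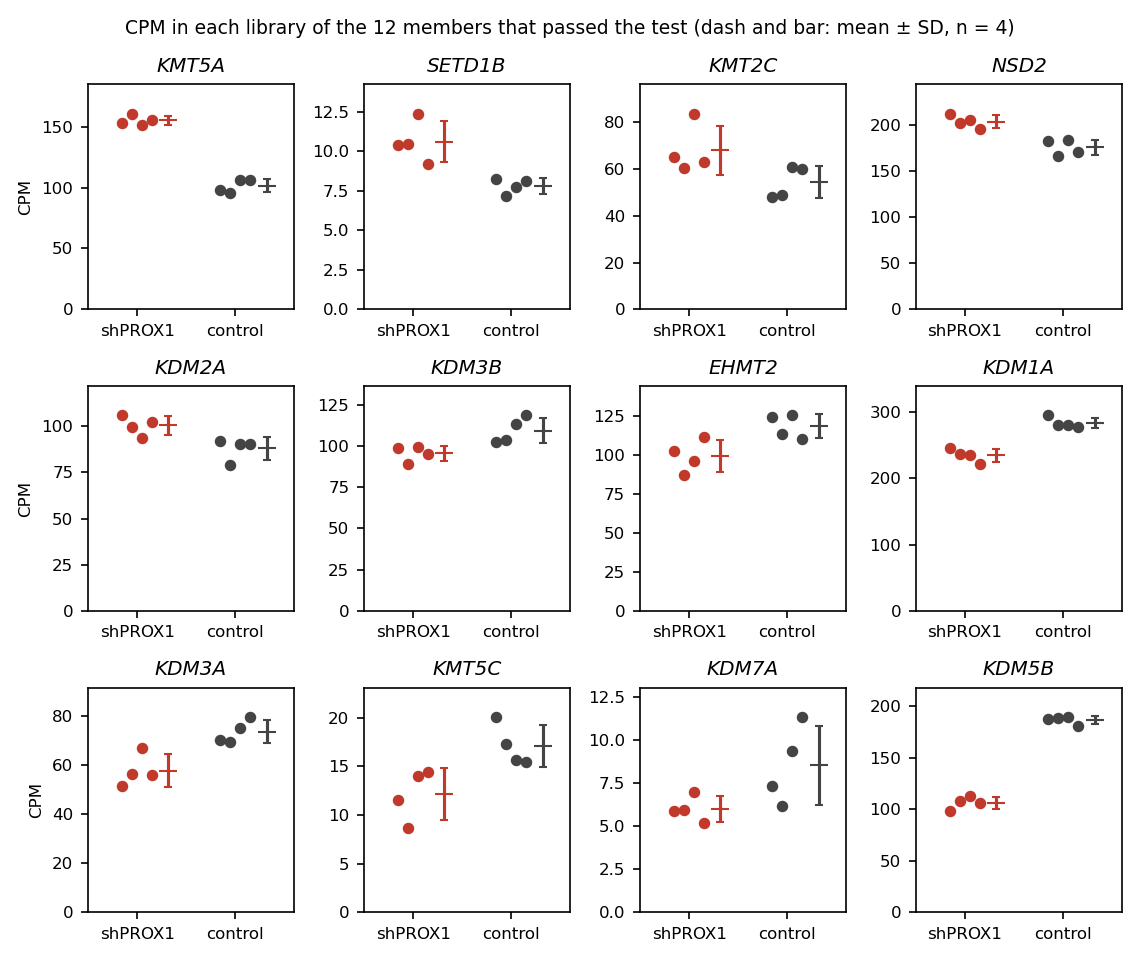
CPM in each of the 4 shPROX1 (red, left) and 4 control (dark, right) libraries for the 12 members that passed the test, 1 panel per gene, each y axis starting at 0. Dashes with bars are mean ± SD. The groups are far apart for KDM5B (98.6 to 112 CPM in shPROX1 and 181 to 189 CPM in control) and KMT5A (152 to 160 CPM and 95.8 to 106 CPM), and overlap for EHMT2, KMT2C and KDM7A.

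H4K20 methylation is placed in steps, a monomethyl group by KMT5A and further methyl groups by KMT5B and KMT5C, and these 3 genes moved in unlike ways. KMT5A (SET8, known for its need in chromosome compaction and cell cycle progression) had 153, 160, 152 and 155 CPM in shPROX1, against 97.9, 95.8, 106 and 106 CPM in control (ENSG00000183955, chr12:123383773-123409358, plus strand). All shPROX1 libraries lay above all control libraries, and the spread within each group was small. The means of 155 ± 3.91 CPM in shPROX1 and 101 ± 5.31 CPM in control (SD, n = 4 each) differed 1.53-fold (95% interval 1.41 to 1.65; log2 change 0.61 ± 0.05, edgeR adjusted p = 5.67e-09), in all 18 settings. Its processed pseudogene SETD8P1 drew at most 1 count in any library.

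KMT5C went the other way, with 11.6, 8.69, 14.0 and 14.4 CPM in shPROX1, against 20.1, 17.3, 15.7 and 15.4 CPM in control (log2 change -0.49 ± 0.15, edgeR adjusted p = 0.0150). No overlap was seen, but the groups came close, at 35 to 61 counts in shPROX1 and 65 to 85 in control, and the call was lost without shPROX1 replicate 2 (edgeR adjusted p = 0.0725). KMT5B, which shares the di- and trimethylating activity, averaged 41.6 ± 1.94 CPM in shPROX1 and 44.1 ± 1.71 CPM in control and did not pass (log2 change -0.09 ± 0.07, 95% interval -0.24 to 0.07). Per transcript length the KMT5A to KMT5B ratio was 6.71 to 7.11 in the shPROX1 libraries and 3.91 to 4.62 in control, with no overlap. The summed level of the 3 genes per transcript length was 61.8 ± 0.941 CPM per kb in shPROX1 and 47.3 ± 1.16 in control, most of it KMT5A (49.4 and 32.3).

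Of the 7 tested H3K9 demethylases 3 fell and 0 rose, with a median log2 change of -0.20. These calls are 42.9% of the group, against 35.2% of all tested genes (17.9% lower), and rest on few genes. KDM3A, which removes mono- and dimethyl groups from H3K9 and is known as a target of the hypoxia-inducible factor HIF-1, had 51.5, 56.6, 67.2 and 56.2 CPM in shPROX1, against 70.2, 69.6, 75.2 and 79.8 CPM in control. The groups did not overlap (57.9 ± 6.61 CPM in shPROX1 and 73.7 ± 4.77 CPM in control; log2 change -0.36 ± 0.08, edgeR adjusted p = 9.30e-04), and the fall was called in all 18 settings. Its paralog KDM3B fell less, with 98.6, 88.9, 99.4 and 94.9 CPM in shPROX1, against 102, 103, 113 and 119 CPM in control (log2 change -0.20 ± 0.06, edgeR adjusted p = 0.0147). That call was lost without control replicate 3 or 4 or shPROX1 replicate 2 (edgeR adjusted p up to 0.0740).

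KDM7A, a PHD finger enzyme known to act on H3K9 and H3K27, was called on few reads, 22 to 26 counts in shPROX1 and 25 to 56 in control. Its level was 5.91, 5.96, 6.99 and 5.19 CPM in shPROX1, against 7.33, 6.17, 9.40 and 11.4 CPM in control (log2 change -0.53 ± 0.21, edgeR adjusted p = 0.0476). The groups overlapped, control replicate 4 held the highest value, and the call was lost without control replicate 3 or 4 or shPROX1 replicate 1, 2 or 4 (edgeR adjusted p = 0.0878 to 0.234), and in DESeq2 (0.125).

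The KDM4 enzymes, which act on trimethylated H3K9 and H3K36, did not pass. The most abundant, KDM4A, had 95.8, 96.9, 105 and 104 CPM in shPROX1, against 100.0, 102, 108 and 95.6 CPM in control, and its log2 change of -0.01 ± 0.06 had a 95% interval of -0.13 to 0.11. It shares 48.5% of its exon bases with other annotated genes, most of all AL451062.3 on the same strand, so reads of the overlap may be missing from its count. KDM4B averaged 21.3 ± 2.87 CPM in shPROX1 and 24.6 ± 3.25 CPM in control (log2 change -0.19 ± 0.12), KDM4C 11.0 ± 1.12 CPM and 10.5 ± 1.94 CPM (0.07 ± 0.16), and KDM4D 5.18 ± 0.742 CPM and 6.58 ± 0.710 CPM (-0.35 ± 0.20).

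Among the H3K9 methyltransferases EHMT2 fell and the other 3 did not pass (25.0% called, against 35.2% of all tested genes). EHMT2 (G9a), which pairs with EHMT1 to place mono- and dimethyl H3K9 and is known to hold back MYOD1 in myoblasts, had 102, 87.4, 95.9 and 112 CPM in shPROX1, against 125, 113, 125 and 110 CPM in control. The ranges overlapped between shPROX1 replicate 4 and control replicate 4, and the fall was small but called in all 18 settings (99.4 ± 10.2 CPM in shPROX1 and 118 ± 7.79 CPM in control; log2 change -0.25 ± 0.07, edgeR adjusted p = 0.00657). Other annotated genes cover 8.12% of its exon bases, most of all EHMT2-AS1 on the opposite strand.

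EHMT1, the most abundant of the others, had 82.3, 77.5, 77.7 and 73.9 CPM in shPROX1, against 76.3, 78.5, 79.1 and 87.1 CPM in control (log2 change -0.05 ± 0.06). Its groups overlapped. SUV39H2 averaged 34.0 ± 1.54 CPM in shPROX1 and 37.7 ± 3.27 CPM in control (log2 change -0.15 ± 0.09), and SUV39H1, which with SUV39H2 places trimethyl H3K9 in heterochromatin, 21.4 ± 3.55 CPM and 20.7 ± 2.62 CPM (0.06 ± 0.13). The sign of SUV39H1 turned without shPROX1 replicate 1 (-0.06) or control replicate 4 (-0.02). Other annotated genes cover 20.3% of its exon bases, most of all AC231533.1 on the opposite strand.

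The H3K27 enzymes gave no call in either direction. EZH2, the main catalytic subunit of the Polycomb complex PRC2, had 94.6, 80.7, 82.0 and 89.2 CPM in shPROX1, against 72.8, 86.7, 69.9 and 90.9 CPM in control. The groups overlapped, and the log2 change was 0.11 ± 0.08 (edgeR adjusted p = 0.292) with a fold of 0.965 to 1.21 in its 95% interval. EZH1, known from non-dividing cells, averaged 22.2 ± 1.92 CPM in shPROX1 and 24.0 ± 2.04 CPM in control (log2 change -0.11 ± 0.11). Of the erasers, KDM6A (UTX) had 35.0, 36.5, 41.9 and 41.5 CPM in shPROX1, against 38.5, 40.2, 36.2 and 35.5 CPM in control (0.04 ± 0.09). KDM6B (JMJD3) was low, at 4.20 ± 0.518 CPM in shPROX1 and 5.34 ± 1.6 CPM in control (-0.36 ± 0.24). The 95% interval of the KDM6B log2 change, -0.87 to 0.14, holds both the size of the KDM5B fall and a small rise.

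Among the H3K36 methyltransferases NSD2 rose, and all 4 log2 changes were positive with a median of 0.20. The share called was 25.0%, against 35.2% of all tested genes. NSD2, which places dimethyl H3K36 and is known from multiple myeloma, had 212, 202, 205 and 195 CPM in shPROX1, against 182, 167, 183 and 170 CPM in control. All shPROX1 libraries were above all control libraries, and the rise was small but called in all 18 settings (204 ± 6.89 CPM in shPROX1 and 176 ± 8.44 CPM in control; log2 change 0.21 ± 0.05, edgeR adjusted p = 0.00216). NSD3, the most abundant of the others by CPM, had 191, 190.0, 207 and 191 CPM in shPROX1, against 182, 192, 184 and 192 CPM in control (0.05 ± 0.05), with the groups overlapping. SETD2, the enzyme of trimethyl H3K36, averaged 92.0 ± 7.67 CPM in shPROX1 and 81.1 ± 11.4 CPM in control (log2 change 0.18 ± 0.08, edgeR adjusted p = 0.102) and passed without control replicate 4 (0.0138). NSD1 averaged 11.5 ± 1.26 CPM in shPROX1 and 9.60 ± 0.782 CPM in control (0.26 ± 0.15).

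KDM2A, a CpG island binding eraser of dimethyl H3K36, was the only demethylase to rise, with 106, 99.9, 93.8 and 102 CPM in shPROX1, against 92.2, 79.0, 90.6 and 90.3 CPM in control (log2 change 0.19 ± 0.06, edgeR adjusted p = 0.0204). The groups did not overlap, but the call was lost without control replicate 2 (edgeR adjusted p = 0.0848), the lowest control library, and without shPROX1 replicate 1 (0.0770). Its paralog KDM2B, a subunit of a variant Polycomb complex, had 53.2, 61.1, 61.5 and 51.5 CPM in shPROX1, against 63.8, 56.3, 54.7 and 62.7 CPM in control (-0.07 ± 0.08), and the groups overlapped. KDM8 (JMJD5), whose activity as a histone demethylase is disputed, averaged 7.08 ± 1.56 CPM in shPROX1 and 8.33 ± 1.69 CPM in control (-0.23 ± 0.20). Other annotated genes cover 14.5% of its exon bases, most of all AC109449.1 on the opposite strand.

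**Figure D3:**
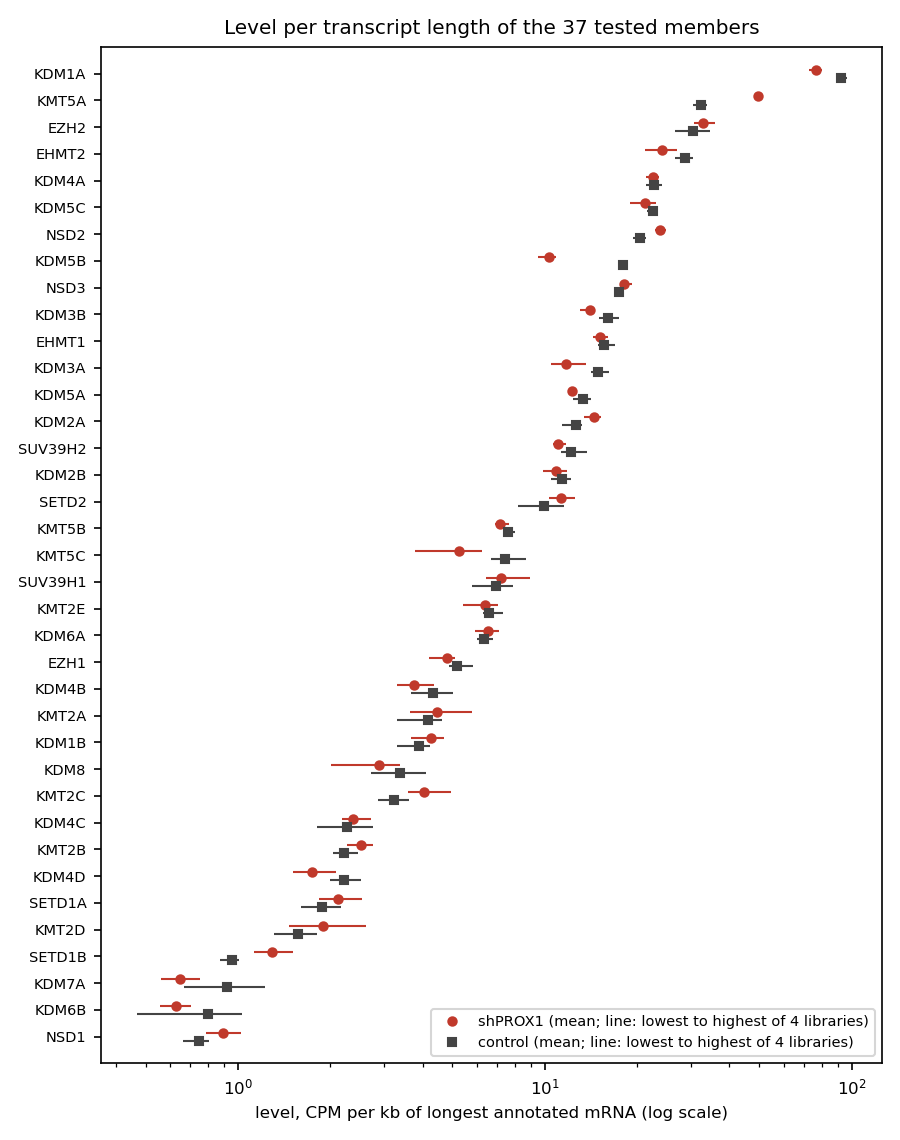
Level of the 37 tested members in CPM per kb of the longest annotated mRNA (x axis, log scale), ordered by the control mean. Red circles are shPROX1 means and dark squares control means, and lines run from the lowest to the highest of 4 libraries. KDM1A is the most abundant in both groups (76.7 in shPROX1 and 92.5 in control), and KDM5B holds rank 17 in shPROX1 and rank 8 in control.

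Per transcript length the 37 tested members spanned a wide range, from 0.626 (KDM6B) to 76.7 (KDM1A) CPM per kb in shPROX1 and from 0.744 (NSD1) to 92.5 (KDM1A) in control. KDM1A, KMT5A, EZH2 and EHMT2 held ranks 1 to 4 in both groups. In shPROX1 the ranges of EZH2 (30.6 to 35.8) and KMT5A (48.3 to 51.1) did not meet, whereas in control they did (26.5 to 34.5 for EZH2 and 30.5 to 33.7 for KMT5A). Of 11 pairs of paralogs compared, some differed widely in level and others little. The EZH2 to EZH1 ratio averaged 6.91 ± 1.13 in shPROX1 and 5.91 ± 1.12 in control, the KDM6A to KDM6B ratio 10.5 ± 0.467 and 8.67 ± 3.12, and the NSD2 to NSD1 ratio 26.9 ± 3.74 and 27.7 ± 3.43 (SD, n = 4 each). The KDM1A to KDM1B ratio was 18.2 ± 2.76 in shPROX1 and 23.9 ± 2.64 in control. Closer pairs were EHMT2 to EHMT1 (1.59 ± 0.203 in shPROX1 and 1.84 ± 0.206 in control), KMT2A to KMT2B (1.77 ± 0.359 in shPROX1 and 1.90 ± 0.378 in control), KDM3A to KDM3B (0.839 ± 0.0907 in shPROX1 and 0.932 ± 0.0118 in control) and SUV39H1 to SUV39H2 (0.651 ± 0.0786 in shPROX1 and 0.575 ± 0.107 in control). Dividing by the longest annotated mRNA understates genes whose shorter transcripts dominate, and the values rest on uniform coverage, which was not tested.

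Beside the members, 8 lists of partner, related and context genes held 116 genes, of which 111 were tested, and 23 of them rose and 20 fell. The 4 lists of partners (COMPASS, LSD1-CoREST, PRC2 and H3K9 methylation) had 5 rises and 16 falls among 51 tested genes. Their share called was 41.2%, against 35.2% of all tested genes (17.3% higher and 17.9% lower). Several of the falls were lost with a single library left out, as given below. COMPASS subunits had 2 rises and 4 falls among 16 (37.5% called, median log2 change -0.09). PSIP1 (LEDGF), which tethers KMT2A to chromatin, fell to 57.9 ± 2.09 CPM in shPROX1, against 77.3 ± 3.72 CPM in control (-0.41 ± 0.06, edgeR adjusted p = 2.48e-05), and the core subunit RBBP5 fell by 0.23 ± 0.06 on the log2 scale. HCFC2 rose (0.30 ± 0.07), as did the CpG binding subunit CXXC1 (0.22 ± 0.08), whose call was lost without control replicate 1, 2 or 4 or shPROX1 replicate 1, 3 or 4 (edgeR adjusted p = 0.0608 to 0.137). BOD1L1, the most abundant uncalled subunit, had a log2 change of 0.06 ± 0.07.

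The LSD1-CoREST list had 1 rise and 6 falls among 12 genes (median log2 change -0.18), and KDM1A itself fell. These calls are 58.3% of the list, against 35.2% of all tested genes. The summed level of the 12 genes did not fall, at 283 ± 13.3 CPM per kb in shPROX1 and 275 ± 13.2 in control (SD, n = 4 each). HDAC1 made up 152 of that sum in shPROX1 and 130 in control. RCOR2, a CoREST scaffold known from stem cells, had 6.86, 6.95, 11.8 and 8.03 CPM in shPROX1, against 13.9, 14.3, 13.5 and 14.0 CPM in control (-0.74 ± 0.17, edgeR adjusted p = 0.00123). No shPROX1 library reached the control range. GSE1 (-0.34 ± 0.10) and HMG20B (-0.24 ± 0.08) fell, while the deacetylase HDAC1 rose (0.23 ± 0.06) and GLYR1, the most abundant uncalled gene, was at 0.09 ± 0.05. The HMG20B call was lost without control replicate 1 (edgeR adjusted p = 0.0977) or shPROX1 replicate 3 (0.0946).

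Of 11 tested PRC2 genes 3 fell and 0 rose (median log2 change -0.04), beside uncalled EZH1 and EZH2. The calls are 27.3% of the list, against 35.2% of all tested genes (17.9% lower). The accessory subunit EPOP fell to 13.3 ± 1.83 CPM in shPROX1, against 19.0 ± 2.88 CPM in control (-0.50 ± 0.14, edgeR adjusted p = 0.00739). The core subunit SUZ12 (-0.33 ± 0.11) and JARID2, which targets PRC2 (-0.30 ± 0.09), also fell, while RBBP4, the most abundant, did not pass (-0.05 ± 0.05). The SUZ12 call was lost without control replicate 4 or shPROX1 replicate 1, 2 or 4 (edgeR adjusted p = 0.0573 to 0.138), and the JARID2 call without control replicate 4 (0.0603) or shPROX1 replicate 4 (0.0540).

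Readers and partners of H3K9 methylation had 2 rises and 3 falls among 12 (median log2 change -0.12). The share called was 41.7%, against 35.2% of all tested genes. UHRF1, which reads methylated H3K9 at replicating DNA, rose to 855 ± 24.8 CPM in shPROX1, against 697 ± 6.80 CPM in control (0.29 ± 0.04, edgeR adjusted p = 1.92e-06). Of the heterochromatin proteins, CBX3 rose (0.18 ± 0.04) while CBX1 (-0.19 ± 0.06) and CBX5 (-0.17 ± 0.05, named after its values were seen) fell. The CBX5 call was lost without control replicate 2 or 4 and without shPROX1 replicate 2 or 4 (edgeR adjusted p = 0.0506, 0.0730, 0.0832 and 0.0717). MPHOSPH8 also fell (-0.31 ± 0.11), a call lost without control replicate 2, 3 or 4 or shPROX1 replicate 3 or 4 (edgeR adjusted p = 0.0720 to 0.138). TRIM28, the most abundant uncalled gene, had 0.10 ± 0.04 (edgeR adjusted p = 0.0508) and passed without control replicate 1 (0.0185) or shPROX1 replicate 1 (0.0406).

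Relatives outside the name rule were mixed as well. Other SET domain and histone methyltransferases had 2 rises and 3 falls among 16 tested genes (median log2 change 0.03). The share called was 31.25%, against 35.2% of all tested genes. SMYD1, known for its role in muscle, fell to 11.5 ± 2.33 CPM in shPROX1, against 17.5 ± 3.12 CPM in control (-0.61 ± 0.16, edgeR adjusted p = 0.00433), and SETD6 fell by 0.40 ± 0.09 on the log2 scale. SMYD3 fell (-0.26 ± 0.10) and DOT1L, the H3K79 enzyme, rose (0.24 ± 0.09), both calls that were lost in several left-out libraries: SMYD3 in all but control replicate 2 (edgeR adjusted p = 0.0527 to 0.119), DOT1L without control replicate 1, 2 or 3 or shPROX1 replicate 1 or 3 (0.101 to 0.131). ASH1L, the most abundant uncalled gene, was at 0.09 ± 0.07. Other JmjC oxygenases had 2 rises and 0 falls among 11 tested (median -0.03), with 7 negative log2 changes. Their share called, 18.2%, is below the 35.2% of all tested genes. JMJD6 rose to 50.5 ± 2.03 CPM in shPROX1, against 35.4 ± 1.77 CPM in control (0.52 ± 0.08, edgeR adjusted p = 1.08e-05), and JMJD1C, a relative of KDM3A, rose by 0.23 ± 0.06 on the log2 scale, while HIF1AN did not pass (0.11 ± 0.09).

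**Figure D4:**
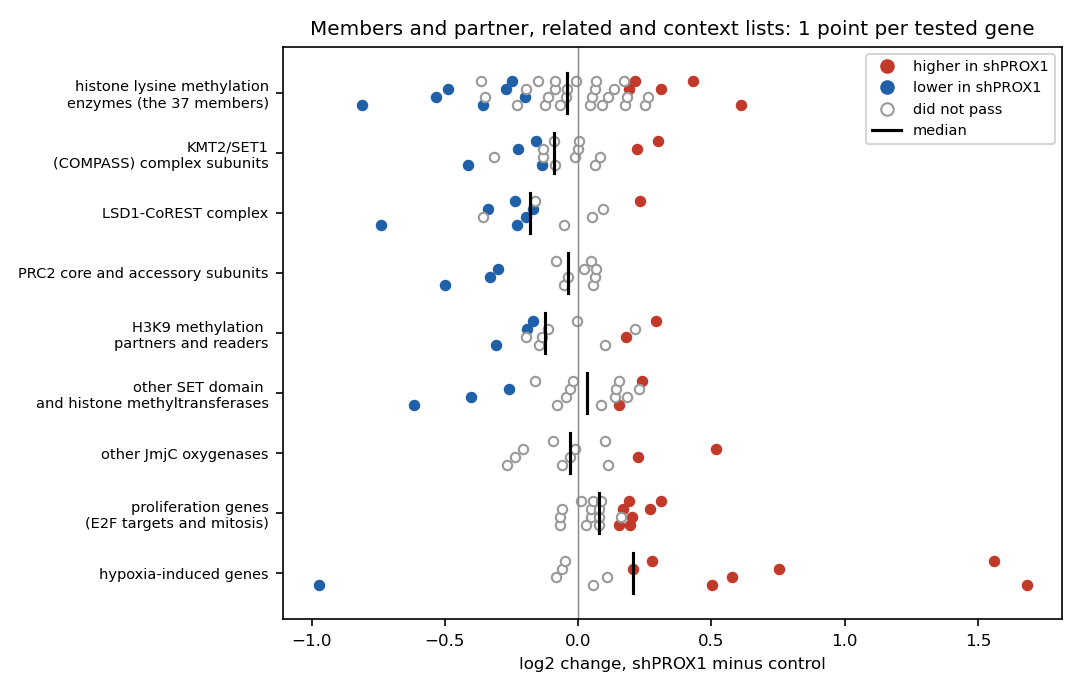
Log2 change (shPROX1 minus control, x axis) of every tested gene in the member list and in 8 lists of partner or context genes, 1 point per gene, red for rises, blue for falls, open for genes that did not pass, with a black line at each list's median. The LSD1-CoREST median lies at -0.18 and the hypoxia list holds the widest range, from -0.97 to 1.68.

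Context lists that known regulation ties to some members were also read. Proliferation genes, of which many share E2F control with EZH2 and UHRF1, had 7 rises and 0 falls among 20 (median log2 change 0.08). Their share called, 35.0%, lies near the 35.2% of all tested genes. RRM2 rose to 247 ± 14.1 CPM in shPROX1, against 199.6 ± 14.7 CPM in control (0.31 ± 0.06, edgeR adjusted p = 1.78e-04). It shares 20.2% of its exon bases with other annotated genes, most of all AC007240.1 on the same strand. CCNE2 (0.27 ± 0.09), PLK1 (0.20 ± 0.06) and MCM4 (0.19 ± 0.05) rose, while TOP2A did not pass (-0.07 ± 0.04). The CCNE2 call was lost without control replicate 1, 3 or 4 or shPROX1 replicate 2 or 3 (edgeR adjusted p = 0.0568 to 0.0847), and that of PLK1 without shPROX1 replicate 3 (0.0626).

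Hypoxia-induced genes had 7 rises and 1 fall among 13 tested (median log2 change 0.20), beside the fall of KDM3A, which is known to belong to the same response. Of these 13 genes 61.5% were called, against 35.2% of all tested genes. ADM rose to 204 ± 9.49 CPM in shPROX1, against 69.0 ± 2.61 CPM in control (1.56 ± 0.06, edgeR adjusted p = 1.26e-15). ANGPTL4 (1.68 ± 0.25) and VEGFA (0.75 ± 0.13) rose, DDIT4 fell (-0.97 ± 0.08), and P4HA1, the most abundant uncalled gene, was at -0.06 ± 0.05. KDM4B, also a known hypoxia target, did not pass, as given above. Of the genes of these lists named here, RBBP4 (18.0% of exon bases, opposite SYNC), SETD6 (21.4%, opposite CNOT1), DOT1L (11.5%, opposite AC004490.1), PLK1 (12.5%, opposite AC008870.3), CCNE2 (37.1%, opposite INTS8) and DDIT4 (41.2%, opposite DDIT4-AS1) also overlap other annotated genes, and their counts are uncertain to that extent. Each percent counts overlap with all other annotated genes on either strand, and the gene named beside it holds the largest part.

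Length and GC content of the members were set beside the changes. The 5 members that rose had a median mRNA length of 8.19 kb (3.14 to 16.9), the 7 that fell 4.93 kb (2.31 to 10.3), and the 25 that did not pass 5.84 kb (2.46 to 19.4). Across the 37 tested members the Spearman correlation of log2 change with mRNA length was 0.35, against -0.03 over all tested genes with an annotated transcript, and that with GC content was 0.04, against -0.04. These are correlations across genes that share the same 8 libraries, and genes are not independent replicates. Once GC content and exon length were offset in the fit, all 12 calls were kept, and KDM5A and SETD2 were called in addition. With the replicate block added to that offset, KDM7A was lost and SETD2 gained. The offset used the length of all annotated exons together, not the mRNA length above. It was fitted over tested genes at large, so it cannot decide on the correlation among the members.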

How the data were processed

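RNA-seq libraries of RD cells (4 shPROX1, 4 control) were made with a directional kit, per the labels' protocols. The deposited files, made by the authors, hold raw counts for 58302 genes in each library. The tools FastQC, HISAT2, HTSeq and DESeq2 and the genome build GRCh38 are named in the submitters' processing notes. Their versions, the gene annotation, whether reads were counted by strand, and the hairpin are not given in the sources used here, and reads of overlapping genes may be shared or dropped. Identifiers were matched to GENCODE 29 (58039 of 58302), which gave symbols, 1-based coordinates and mRNA lengths. Promoter windows were those of RefSeq on GRCh38.p14.

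The main test was edgeR 4.0.16 (R 4.3.3): TMM factors, filterByExpr, a quasi-likelihood F test on group alone, and Benjamini-Hochberg adjustment at 0.05 over 12392 genes. PROX1 was also tested with an exact two-sided permutation of the 8 labels (p = 0.0286, the smallest that 70 arrangements allow). The fit was tested on simulated data. Its biological coefficient of variation was 6.41%. All pairs of libraries within a group differed by more than sampling noise, but control pairs differed more. Chi-square per degree of freedom was 1.19 to 2.16 among shPROX1 pairs and 2.39 to 6.34 among control pairs. The fit took the variation to be equal in both groups. Libraries held 3747090 to 4865161 counts, and 3 counts correspond to 0.617 to 0.801 CPM. Intervals of 95% come from the edgeR fit.

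Members and lists were chosen with earlier results of these data known, and lists were described by counts and medians with no list test. The text names every called member, the most abundant uncalled member of each mark group, at most 4 called genes of each partner, related or context list (those farthest from 0 with a mean of at least 1 CPM), that list's most abundant uncalled gene, and PROX1, and gives other members by mean. Other settings tried were RLE factors, upper-quartile factors, testing without a filter, a filter of 1 CPM in 4 libraries, DESeq2 1.42.0, voom (limma 3.58.1), the replicate number as a block, a loess offset (span 0.5) for GC and exon length with and without that block, each library left out, and a threshold of 0.01. Tables and figures were made in Python 3.11.15 with pandas 2.3.3, numpy 2.4.6, matplotlib 3.10.9 and scipy 1.17.1. Of the marker lists, 1 gene is not reported here.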

Additional observations from a re-analysis of the deposited data

Results flagged for a closer look

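In 4 of 76 sets of 4 libraries (the 37 tested members and PROX1, each in both groups) 1 library stood apart from the other 3 by Dixon's 95% criterion, which chance meets in about 1 in 20 sets. SUV39H1 had 26.7 CPM in shPROX1 replicate 1, against 19.1 to 20.3 CPM in the other 3 shPROX1 libraries. KMT5B had 44.5 CPM in shPROX1 replicate 2, against 40.3 to 40.9 CPM. NSD3 had 207 CPM in shPROX1 replicate 3, against 190.0 to 191 CPM. KDM2A had 79.0 CPM in control replicate 2, against 90.3 to 92.2 CPM in the other 3 control libraries, and its call was lost without that library (log2 change 0.14, edgeR adjusted p = 0.0848).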

How the results depend on the processing

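Across 18 alternative settings (8 of them leaving out 1 library each) the falls of KDM5B, KDM1A, KDM3A and EHMT2 and the rises of KMT5A and NSD2 were called every time, with log2 changes of -0.85 to -0.78, -0.29 to -0.24, -0.43 to -0.30, -0.31 to -0.18, 0.59 to 0.64 and 0.18 to 0.23. The calls of KDM7A (12 settings), SETD1B (10), KDM3B (4), KMT2C (3), KDM2A (3) and KMT5C (2) were lost at times, and SETD2 (4) and KDM5A (2) were gained. With 1 library left out, 2 to 5 members were higher and 4 to 8 lower, their median log2 change was -0.057 to 0.0097, and 11 to 17 of the 111 tested genes of the partner, related and context lists were lower. At an adjusted threshold of 0.01, 2 members were higher and 4 lower, and 15 genes of those lists were higher and 8 lower. Beyond the stricter threshold and the fewer libraries, the cause was not tested. Replicate numbers did not pair the libraries (correlations of deviations -0.07 to 0.08, and no library correlated best with its own number). With the replicate block 4 members were higher and 6 lower (KDM7A and SETD1B lost). DESeq2 gave 4 higher and 6 lower members. Signs turned for uncalled members only, with 1 library left out, where log2 changes ranged from -0.051 to 0.17 for KMT2A, -0.020 to 0.17 for KDM4C, -0.083 to 0.032 for KMT2E, -0.036 to 0.022 for KDM4A and -0.062 to 0.13 for SUV39H1. Depth limits KDM7A, SETD1B, KDM6B, KDM4D and KDM8, which averaged under 11 CPM in both groups.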
